A study of Mus musculus with 12 samples.

Results

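The genes described here are those of the striatal acetylcholine system: *Chat*, *Slc5a7*, *Slc18a3*, *Ache* and *Lhx8*, which mark cholinergic interneurons, and *Chrm1*, *Chrm2*, *Chrm3*, *Chrm4* and *Chrm5*, which encode the muscarinic acetylcholine receptors. The members were taken by gene symbol, and all 10 were found among the 52169 gene symbols of the transcript table, with 48 of its 189364 named transcripts. Each gene was represented by its transcript with the highest mean level over all libraries. Every member passed the filter on low counts in all 5 comparisons.

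Acetylcholine in the striatum comes largely from a sparse population of large, tonically active interneurons. Choline is taken up, acetylated, loaded into vesicles, released and then broken down outside the cell, and the transmitter acts on nicotinic receptors, which are ion channels, and on muscarinic receptors, which couple to G proteins. Spiny projection neurons carry mainly the receptors encoded by *Chrm1* and *Chrm4*, the latter being most abundant in the projection neurons that also carry the dopamine D1 receptor. Dopamine and acetylcholine act against each other on many striatal outputs, which is why the cholinergic genes are of interest in a striatum that has lost its dopamine.

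RNA was sequenced from 4 groups with 3 libraries each: lesioned and unlesioned striatum from mice given L-DOPA once (acute L-DOPA) or daily for 9 days (chronic L-DOPA). All were female C57BL/6J mice that had received 1 µl of the neurotoxin 6-OHDA (3 µg/µl) in the right medial forebrain bundle, after desipramine to spare noradrenergic neurons, and had recovered for 2 weeks. L-DOPA (10 mg/kg) was injected with benserazide (7.5 mg/kg), which blocks its conversion outside the brain, and 3 punches of 2 mm were taken 1 hour after the last dose. The acute and the chronic libraries therefore differ in the number of doses and in the time since the lesion, and the age of the mice is not given in the sources used here. All 4 groups received L-DOPA, so effects of the lesion and of L-DOPA in the lesioned striatum cannot be told apart. The text of the study treats the unlesioned side as the control within each mouse, whereas the series' design text counts 12 mice for 12 libraries.

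The totals ran from 87695043 to 173116525 counts per library over all transcripts, or from 18373868 to 36492201 over a single transcript per gene. The floor of 3 counts corresponded to 0.0173 to 0.0342 CPM (counts scaled to the normalised library total, the unit used throughout), and every member lay above it in every library. All 6 shared markers of spiny neurons were present in every group, with summed levels of 1230 to 1940 CPM. Replicate 2 of the chronic unlesioned group stood apart by transcripts of the choroid plexus, with 451 CPM of *Ttr* against at most 1.5 CPM in any other library, so values without it are given where it moves a result. Markers of cortical glutamatergic neurons varied between libraries, and their values stand beside the receptors below.

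Per kilobase of transcript, the receptor gene *Chrm4* had the highest level of the members in both unlesioned groups, with 11.1 ± 0.84 CPM per kb (SD, n = 3) after acute and 9.89 ± 0.21 after chronic L-DOPA. In the lesioned striatum *Ache* was first, with 9.39 ± 1.4 CPM per kb after acute and 12.8 ± 1.3 after chronic L-DOPA. *Chrm4* and *Ache* did not overlap in the acute unlesioned libraries, but they did in the chronic unlesioned ones. *Chrm1* followed these 2 in all groups except the acute lesioned one, where it lay above *Chrm4*. It overlapped with *Ache* in the acute unlesioned group, and *Chrm4* overlapped with *Chat* in the acute lesioned one.

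Below these, the order was the same in the 4 groups from the fourth to the seventh place: *Chat*, *Slc5a7*, *Slc18a3* and *Lhx8*. *Chat* ranged from 2.12 ± 0.16 to 2.68 ± 0.31 CPM per kb between groups and *Lhx8* from 0.732 ± 0.17 to 1.16 ± 0.12. Neighbours in this order overlapped in some groups, *Chat* with *Slc5a7* in the acute lesioned group, *Slc18a3* with *Lhx8* in the chronic unlesioned group and *Slc5a7* with *Slc18a3* in the chronic lesioned group. *Chrm5* was last in 3 groups, from 0.0639 ± 0.0067 to 0.263 ± 0.081 CPM per kb. In the chronic lesioned group the order at the bottom changed, with *Chrm3* last at 0.342 ± 0.059, not separated from *Chrm5* at 0.378 ± 0.070, which in turn overlapped with *Chrm2* at 0.441 ± 0.078.

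**Figure D1:**
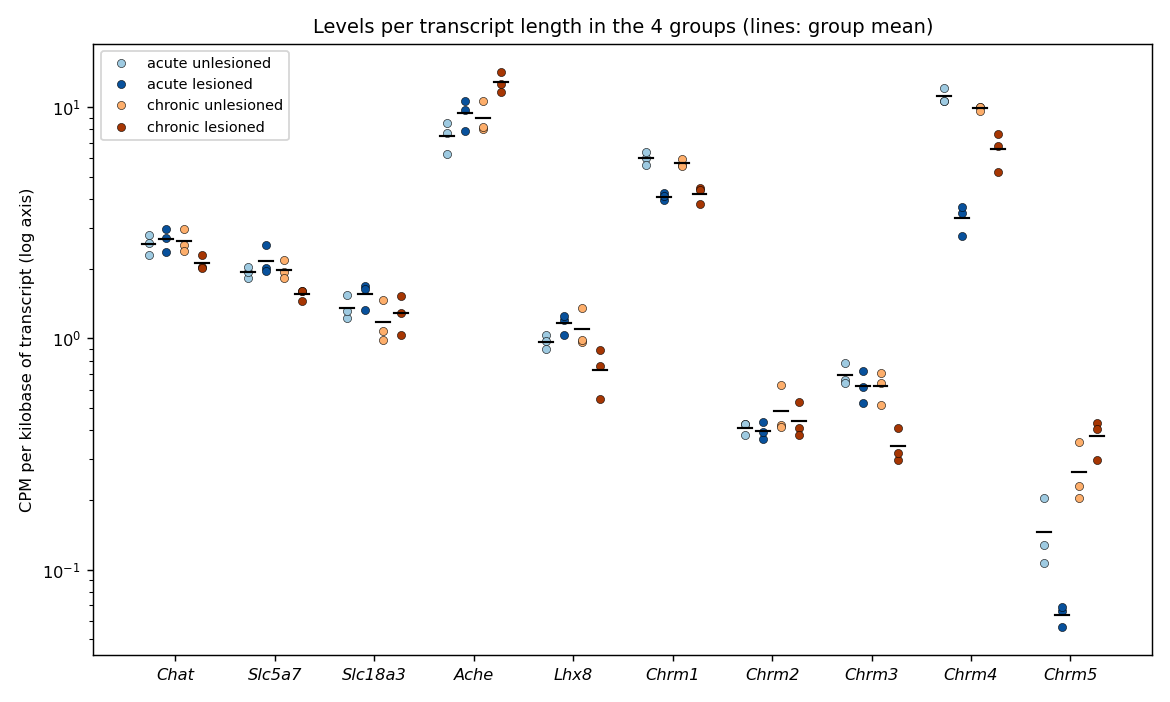
Levels of the 10 members in CPM per kilobase of transcript on a log axis, each point a library, with short lines at the group means and a colour for each of the 4 groups. *Ache*, *Chrm4* and *Chrm1* lie highest, *Chrm4* falls from 11.1 to 3.31 between the acute unlesioned and acute lesioned means, and *Chrm5* and *Chrm3* change places in the chronic lesioned group.

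After acute L-DOPA, 3 of the 10 members were called at a Benjamini-Hochberg adjusted p under 0.05 in edgeR's quasi-likelihood test (written below as edgeR adjusted p), where 15.3% of all genes tested were called. All 3 were muscarinic receptors and all were lower in the lesioned striatum: *Chrm4*, *Chrm5* and *Chrm1*. None of the 5 interneuron genes was called in this comparison, although 5 of the 10 members had an unadjusted p under 0.05. DESeq2 called 3 members, *Chrm1*, *Chrm4* and *Ache*, and 14.2% of all genes. The lesioned and unlesioned libraries did not overlap for 3 members, against 35.1% of all genes. The median log2 fold change was -0.54 over the 5 receptors, 0.20 over the 5 interneuron genes and 0.02 over all genes.

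After chronic L-DOPA, 5 members were called against 13.7% of all genes: *Ache* was higher in the lesioned striatum, and *Slc5a7*, *Chrm1*, *Chrm3* and *Chrm4* were lower. The groups did not overlap for 7 members, against 32.1% of genes. The median log2 fold change was -0.44 over the receptors, -0.31 over the interneuron genes and -0.01 over all genes. Replicate numbers were taken to pair the lesioned and unlesioned libraries within each treatment, as described with the processing. A fit blocked on that number called 5 members after acute L-DOPA (*Ache* and *Lhx8* in addition) and 7 after chronic L-DOPA (*Chat* and *Lhx8* in addition). The block also raised the share called over all genes, to 25.1% and 24.2%.

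Between the lesioned striata, 7 members were called after chronic compared to acute L-DOPA, in a comparison in which 25.6% of all genes were. *Chat*, *Slc5a7*, *Lhx8* and *Chrm3* were lower and *Ache*, *Chrm4* and *Chrm5* were higher. The libraries did not overlap for 7 members, against 41.9% of genes. Between the unlesioned striata no member was called in edgeR's quasi-likelihood test or in DESeq2, and 2 had an unadjusted p under 0.05. There 3.07% of genes were called and 2 members, *Chrm4* and *Chrm5*, did not overlap, against 26.6% of genes. The share called over all genes depended on single libraries, from 0.0679% without acute unlesioned replicate 2 to 12.1% without the library with choroid plexus transcripts. These 4 comparisons share libraries, so they are not independent of each other.

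**Figure D2:**
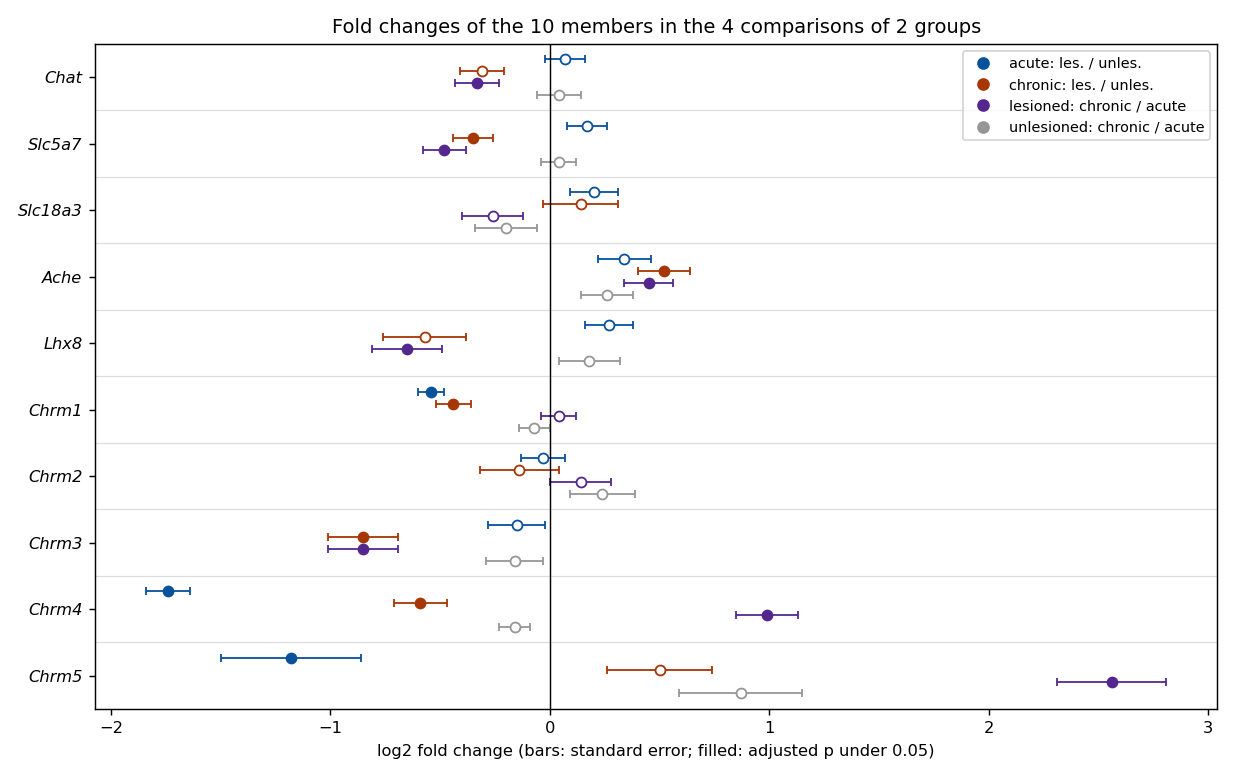
Log2 fold changes of the 10 members (points) with standard errors (bars) in the 4 comparisons, filled where the adjusted p was under 0.05. The 3 filled points of the acute comparison all lie below 0, and no point of the unlesioned comparison is filled.

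*Chat* encodes choline acetyltransferase, which makes acetylcholine from choline, and *Slc18a3* encodes the vesicular acetylcholine transporter, which loads it into synaptic vesicles. The genes share a locus: on the minus strand of mm9, *Chat* (NM_009891, 16 exons) spans chr14:33221389-33279095 and *Slc18a3* (NM_021712, a single exon) lies inside that span at chr14:33275623-33278036, without sharing exon bases. The start of *Slc18a3* lies 1059 bases downstream of that of *Chat*, a distance that was the same between the RefSeq start sites on GRCm38.p6. The promoter windows of both genes (250 bases before to 50 bases after the RefSeq start, minus strand, Chat at chr14:32465860-32466159 and Slc18a3 at chr14:32464801-32465100 of GRCm38.p6) are shown because a shared locus with separate starts is what distinguishes this pair. Capitals mark TGACG read on either strand, the core of the cAMP response element.
Chat: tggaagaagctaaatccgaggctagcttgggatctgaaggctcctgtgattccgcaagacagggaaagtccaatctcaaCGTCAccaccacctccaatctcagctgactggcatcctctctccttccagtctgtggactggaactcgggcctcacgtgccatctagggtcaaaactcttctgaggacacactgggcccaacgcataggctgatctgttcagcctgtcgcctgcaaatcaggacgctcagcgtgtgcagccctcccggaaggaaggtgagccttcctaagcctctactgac
Slc18a3: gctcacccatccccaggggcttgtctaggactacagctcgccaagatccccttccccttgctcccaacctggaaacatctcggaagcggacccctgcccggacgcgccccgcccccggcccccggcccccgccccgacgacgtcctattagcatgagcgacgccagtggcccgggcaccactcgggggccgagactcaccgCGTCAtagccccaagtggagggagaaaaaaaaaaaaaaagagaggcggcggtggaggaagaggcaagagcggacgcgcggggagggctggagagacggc

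Both windows held the core in its reverse orientation, CGTCA, beginning 171 bases before the start of *Chat* and 49 bases before that of *Slc18a3*. Of 32851 RefSeq mouse promoters of the same length, 20.8% held TGACG on either strand, and of the 9 members with a promoter entry only *Chat* and *Slc18a3* did. The full element TGACGTCA (1.79% of promoters), the AP-1 site TGANTCA (7.81%) and the Egr1 site GCGTGGGCG (0.612%) were in none of these 9 windows on either strand. The E-box CACGTG (7.15%) was found in *Chat*, 98 bases before the start, and in *Ache*, 199 bases before. TGACG is part of TGACGTCA, so a window with the latter also counts for the former.

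*Chat* was at 6.46, 7.24 and 7.86 CPM in the acute unlesioned libraries (replicates 1 to 3 in each list) and at 6.60, 8.32 and 7.66 CPM in the acute lesioned ones. After chronic L-DOPA it was at 7.08, 8.37 and 6.71 CPM in the unlesioned and at 5.74, 5.67 and 6.47 CPM in the lesioned striatum. The chronic lesioned libraries lay below all acute lesioned and all chronic unlesioned libraries, and overlapped with the acute unlesioned group at its lowest library. The log2 fold change between the striata was 0.07 (standard error 0.09, edgeR adjusted p = 0.651) after acute and -0.31 (standard error 0.10, edgeR adjusted p = 0.0854) after chronic L-DOPA, or -0.21 (standard error 0.10) after chronic L-DOPA without the library with choroid plexus transcripts. With the replicate block the chronic difference passed the threshold, at -0.30 (standard error 0.09, edgeR adjusted p = 0.0372, over all alternatives 0.0372 to 0.235). *Chat* fell by 0.33 on the log2 scale from the acute to the chronic lesioned striatum (standard error 0.10, edgeR adjusted p = 0.0344). That call was lost without any of 4 libraries (replicates 2 and 3 of the acute lesioned and 1 and 2 of the chronic lesioned group), with log2 fold changes of -0.32 to -0.26 and edgeR adjusted p of 0.0588 to 0.149, and with the transcripts of each gene summed.

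*Slc18a3* was called in none of the 5 comparisons. It was at 2.95, 3.16 and 3.71 CPM in the acute unlesioned, 3.22, 4.05 and 3.94 in the acute lesioned, 2.61, 3.52 and 2.38 in the chronic unlesioned and 2.49, 3.09 and 3.70 in the chronic lesioned libraries. The groups overlapped in all 4 comparisons of 2 groups. The log2 fold changes between the striata were 0.20 (standard error 0.11, edgeR adjusted p = 0.264) after acute and 0.14 (standard error 0.17, edgeR adjusted p = 0.682) after chronic L-DOPA. The chronic value was 0.32 (standard error 0.16, edgeR adjusted p = 0.251) without the library with choroid plexus transcripts. Without replicate 2 of the chronic unlesioned group, the library with choroid plexus transcripts, *Slc18a3* was lower in the chronic than in the acute unlesioned striatum by -0.39 (standard error 0.11, edgeR adjusted p = 0.0473, over all alternatives 0.0473 to 0.818), against -0.20 (standard error 0.14) with it. The ratio of *Slc18a3* to *Chat* per kilobase, computed after their values were seen and not tested, was 0.529 ± 0.020 and 0.577 ± 0.019 in the acute unlesioned and lesioned striatum, and 0.443 ± 0.040 and 0.602 ± 0.086 in the chronic ones (SD, n = 3).

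*Slc5a7* encodes the high-affinity choline transporter, which returns choline to the cholinergic terminal (NM_022025, 9 exons, chr17:54412915-54438359 of mm9, minus strand). Its levels were 9.44, 10.1 and 10.6 CPM in the acute unlesioned, 10.4, 13 and 10.1 in the acute lesioned, 10.0, 11.3 and 9.43 in the chronic unlesioned and 8.31, 7.49 and 8.28 in the chronic lesioned libraries. The chronic lesioned libraries were the lowest of the 12 and overlapped with no other group. *Slc5a7* was not called after acute L-DOPA, when its log2 fold change was 0.17 (standard error 0.09, edgeR adjusted p = 0.253). After chronic L-DOPA it fell in the lesioned striatum by 0.35 on the log2 scale (standard error 0.09, edgeR adjusted p = 0.0305). Of the fits that left out 1 library, the call held only in that without replicate 3 of the unlesioned group. Without any of the other 5 the log2 fold change was -0.37 to -0.28 and the edgeR adjusted p 0.0807 to 0.0947, and it was -0.28 without the library with choroid plexus transcripts. It was also lost with the transcripts of each gene summed. The fall from acute to chronic L-DOPA in the lesioned striatum, by 0.48 (standard error 0.10, edgeR adjusted p = 0.00767), was kept under all 14 alternatives.

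*Lhx8* encodes a LIM homeodomain transcription factor that specifies and maintains cholinergic neurons (ENSMUST00000029852, 9 exons, chr3:153969260-153993615 of mm9, minus strand). It was at 1.86, 2.14 and 2.01 CPM in the acute unlesioned and 2.13, 2.49 and 2.59 CPM in the acute lesioned libraries. After chronic L-DOPA the unlesioned libraries were at 1.99, 2.78 and 2.02 CPM and the lesioned ones at 1.13, 1.57 and 1.84 CPM, all 3 below every other library. The chronic log2 fold change of -0.57 (standard error 0.19, edgeR adjusted p = 0.0784) did not pass the threshold and was -0.40 (standard error 0.18) without the library with choroid plexus transcripts. With the replicate block it passed, as in DESeq2 and with all 12 libraries in the fit (block: -0.57, standard error 0.14, edgeR adjusted p = 0.0127, over all alternatives 0.0127 to 0.221). After acute L-DOPA the log2 fold change was 0.27 (standard error 0.11, edgeR adjusted p = 0.113), and 0.0372 was the edgeR adjusted p with the block (over all alternatives 0.0372 to 0.322). *Lhx8* fell from the acute to the chronic lesioned striatum by 0.65 (standard error 0.16, edgeR adjusted p = 0.0154), a call lost without replicate 2 of the acute lesioned group (-0.63, edgeR adjusted p = 0.0567).

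In bulk tissue, a lower level of these interneuron genes can come from fewer cholinergic cells or from less RNA per cell, and the 2 cannot be told apart. Markers of basal forebrain, septum and pallidum, regions near the striatum that also hold cholinergic cells, had summed levels of 11.9 to 13.7 CPM in the acute unlesioned, 12.9 to 19.2 in the acute lesioned, 12.3 to 15.7 in the chronic unlesioned and 11.6 to 16.9 in the chronic lesioned libraries. Of 4 such markers tested, 1 was lower on the lesioned side after chronic L-DOPA (2 lower and 1 higher with the replicate block), *Gbx1*, with a log2 fold change of -1.21 (edgeR adjusted p = 0.0141), while *Nkx2-1* had -0.05. *Zic1* was higher after acute L-DOPA, by 0.74, and none of the 4 was at 0. Their part in the lower values of *Slc5a7*, *Chat* and *Lhx8* was not tested. Oligodendrocyte markers were lower in the chronic than in the acute lesioned striatum for 6 of 6 genes, with summed levels of 1160 to 2080 against 2110 to 3490 CPM, and their part in that comparison was not tested either. In the same comparison 3 of 5 astrocyte, 3 of 5 microglia and 3 of 4 D2 spiny neuron markers were lower, while 3 of 4 D1 spiny neuron markers were higher. Of the 5 markers of other interneurons 3 were higher there and 1 was lower, *Nos1* by -0.52 (edgeR adjusted p = 0.00106). These counts stand against 25.6% of all genes called in that comparison. Of 5 markers of other interneurons, 1 was lower on the lesioned side after chronic L-DOPA, *Nos1* by -0.53 (edgeR adjusted p = 0.00775), and 3 were higher, *Sst*, *Npy* and *Th*, with summed levels of 88.8 to 102 against 68.8 to 82.5 CPM. With the replicate block *Pvalb* was lower as well, by -0.59 (edgeR adjusted p = 0.000358, against 0.623 without the block). After chronic L-DOPA 13.7% of all genes were called between the striata, or 24.2% with the replicate block. The part of these markers was not tested.

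*Ache* encodes acetylcholinesterase, the enzyme that ends the action of released acetylcholine (AK036259, 5 exons, chr5:137729512-137735688 of mm9, plus strand). Its levels were 13.7, 16.7 and 18.5 CPM in the acute unlesioned and 17.1, 21.1 and 23.1 CPM in the acute lesioned libraries, which overlapped. After chronic L-DOPA the unlesioned libraries held 17.5, 23.0 and 17.9 CPM and the lesioned libraries 25.2, 27.5 and 30.9 CPM, the 3 highest of all 12. In each of the 6 same-numbered pairs the lesioned library was higher.

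The log2 fold change of *Ache* was 0.34 after acute L-DOPA (standard error 0.12, edgeR adjusted p = 0.0820). With the replicate block it was 0.34 with a standard error of 0.05 and passed the threshold (edgeR adjusted p = 0.000382, over all alternatives 0.000382 to 0.262), as it did in DESeq2, without a filter on low counts and without replicate 1 of the acute lesioned group (0.45). After chronic L-DOPA *Ache* rose by 0.52 (standard error 0.12, edgeR adjusted p = 0.0165). That call was lost without replicate 1 or 3 of the chronic unlesioned or replicate 3 of the chronic lesioned group, at 0.45 to 0.46 with an edgeR adjusted p of 0.0713 to 0.0757, and the rise was 0.65 without replicate 2 of the unlesioned group. It also rose from the acute to the chronic lesioned striatum, by 0.45 (standard error 0.11, edgeR adjusted p = 0.0163), which was lost without acute lesioned replicate 1 or chronic lesioned replicate 3 (0.34 to 0.37, edgeR adjusted p of 0.0553 to 0.0616).

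*Chrm1*, *Chrm3* and *Chrm5* encode the muscarinic receptors that couple to Gq proteins and phospholipase C, and *Chrm1* is the most widespread of them in the forebrain. *Chrm1* (NM_001112697, 3 exons, chr19:8738495-8758096 of mm9, plus strand) was at 37.9, 35.2 and 40.1 CPM in the acute unlesioned and 24.9, 26.6 and 25.9 CPM in the acute lesioned libraries. After chronic L-DOPA it was at 35.3, 35.1 and 37.4 CPM in the unlesioned and at 28.1, 23.9 and 27.6 CPM in the lesioned libraries. Every lesioned library lay below every unlesioned library of either treatment. *Chrm1* fell in the lesioned striatum by 0.54 on the log2 scale after acute (standard error 0.06, edgeR adjusted p = 0.000204) and by 0.44 after chronic L-DOPA (standard error 0.08, edgeR adjusted p = 0.00671). These calls were kept under all 14 alternatives of each comparison, with log2 fold changes of -0.59 to -0.49 and of -0.48 to -0.36. The lesioned striata differed by 0.04 (standard error 0.08, edgeR adjusted p = 0.746). A 7SK copy on the opposite strand overlaps 329 exon bases of this transcript, and the sources used here do not state whether strand was used in counting.

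*Chrm3* (NM_033269, 5 exons, chr13:9875859-10360049 of mm9, minus strand) had 83 to 434 counts per library. It was at 2.48, 2.09 and 2.03 CPM in the acute unlesioned and 2.28, 1.95 and 1.66 CPM in the acute lesioned libraries, which overlapped. After chronic L-DOPA it was at 1.63, 2.03 and 2.24 CPM in the unlesioned and 0.947, 1.30 and 1.01 CPM in the lesioned libraries, so the chronic lesioned group was the lowest of the 4 and overlapped with none of them. The log2 fold change was -0.15 after acute L-DOPA (standard error 0.13, edgeR adjusted p = 0.471) and *Chrm3* fell by 0.85 after chronic L-DOPA (standard error 0.16, edgeR adjusted p = 0.00743). It also fell by 0.85 from acute to chronic L-DOPA in the lesioned striatum (standard error 0.16, edgeR adjusted p = 0.00414). Both falls were kept under all 14 alternatives of each comparison, between -1.0 and -0.75 and between -1.01 and -0.73.

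*Chrm5* (NM_205783, a single exon, chr2:112319229-112320974 of mm9, minus strand) is best known from midbrain dopamine neurons and was the scarcest member, with 10 to 92 counts per library. Its levels were 0.223, 0.355 and 0.187 CPM in the acute unlesioned, 0.0984, 0.116 and 0.121 in the acute lesioned, 0.356, 0.402 and 0.621 in the chronic unlesioned and 0.753, 0.522 and 0.706 in the chronic lesioned libraries. The 3 acute lesioned libraries were the lowest of the 12, and all 6 chronic libraries lay above all 6 acute ones, although the nearest pair was at 0.356 and 0.355 CPM. After acute L-DOPA *Chrm5* was lower on the lesioned side by 1.18 on the log2 scale (standard error 0.32, edgeR adjusted p = 0.0301). That call was lost with DESeq2, with the transcripts of each gene summed, and without any library of the comparison other than replicate 3 of the unlesioned group (-1.28 to -0.88, edgeR adjusted p of 0.0513 to 0.112). After chronic L-DOPA the log2 fold change was 0.50 (standard error 0.24, edgeR adjusted p = 0.222). Between the lesioned striata *Chrm5* was 5.89-fold higher after chronic than after acute L-DOPA, a log2 fold change of 2.56 (standard error 0.25, edgeR adjusted p = 7.68e-05) that lay between 2.46 and 2.70 under the 14 alternatives. Between the unlesioned striata it was 0.87 (standard error 0.28, edgeR adjusted p = 0.112).

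**Figure D3:**
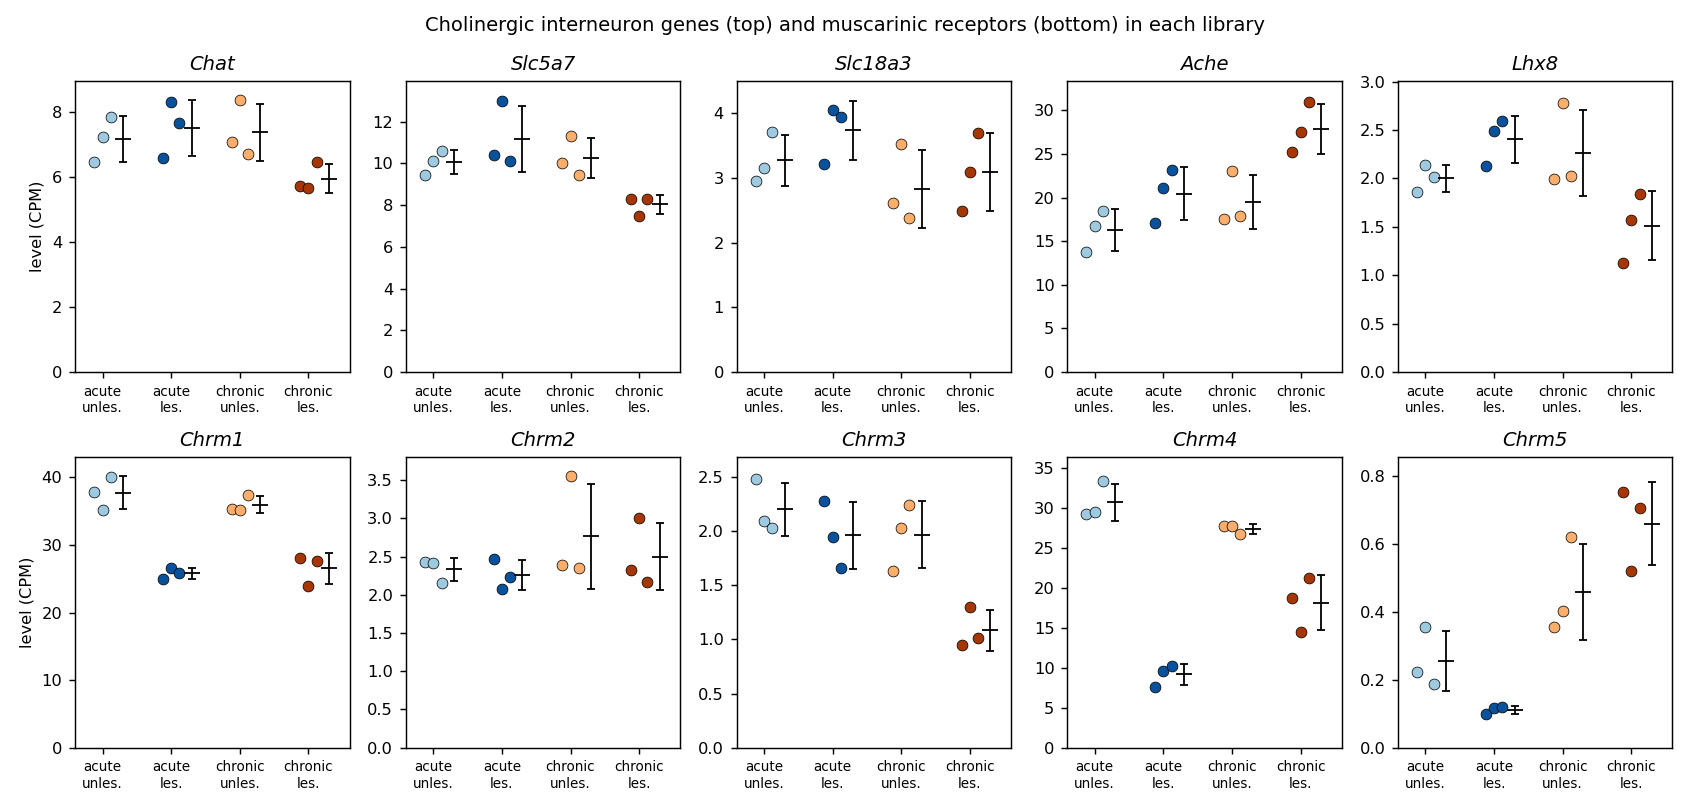
Level of each member in CPM in every library (points), with the mean and SD of each group of 3 beside them; the upper row holds the interneuron genes and the lower row the muscarinic receptors. *Chrm1* separates lesioned from unlesioned libraries in both treatments, while *Slc5a7*, *Lhx8* and *Chrm3* are lowest in the chronic lesioned group.

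*Chrm4* and *Chrm2* encode the receptors that couple to Gi and Go proteins and lower cAMP. *Chrm4* (NM_007699, 2 exons, chr2:91762346-91769986 of mm9, plus strand) was at 29.3, 29.5 and 33.4 CPM in the acute unlesioned libraries and at 7.65, 9.66 and 10.2 CPM in the acute lesioned libraries. After chronic L-DOPA the unlesioned libraries were at 27.7, 27.7 and 26.7 CPM and the lesioned ones at 18.8, 14.5 and 21.2 CPM. The 4 groups did not overlap with each other, and the acute lesioned group was the lowest. *Chrm4* fell in the lesioned striatum by 1.74 on the log2 scale after acute L-DOPA, to 0.299 of the unlesioned level (standard error 0.10, edgeR adjusted p = 2.41e-07), and by 0.59, to 0.663 of it, after chronic L-DOPA (standard error 0.12, edgeR adjusted p = 0.00885). Between the lesioned striata it was 1.98-fold higher after chronic than after acute L-DOPA (log2 fold change 0.99, standard error 0.14, edgeR adjusted p = 0.000796). All 3 calls were kept under the 14 alternatives of each comparison, with the chronic fall between -0.71 and -0.45. In the unlesioned striatum the log2 fold change was -0.16 (standard error 0.07, edgeR adjusted p = 0.214). *Mdk* on the opposite strand overlaps 25 exon bases of *Chrm4*.

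The promoters of *Chrm4* and *Ache*, the highest members per kilobase in the unlesioned and the lesioned striatum, are shown for the repeats that they share (RefSeq, GRCm38.p6, plus strand, 250 bases before to 50 after the start, Chrm4 at chr2:91921939-91922238 and Ache at chr5:137288004-137288303). Capitals mark the GC box GGGCGG on either strand, and copies that overlap run together.
Chrm4: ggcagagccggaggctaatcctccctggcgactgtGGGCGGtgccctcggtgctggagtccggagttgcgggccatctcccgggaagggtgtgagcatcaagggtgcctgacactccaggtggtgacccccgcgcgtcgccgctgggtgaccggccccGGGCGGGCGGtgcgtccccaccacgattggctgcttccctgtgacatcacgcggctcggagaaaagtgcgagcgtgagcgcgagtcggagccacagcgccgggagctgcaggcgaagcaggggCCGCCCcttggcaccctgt
Ache: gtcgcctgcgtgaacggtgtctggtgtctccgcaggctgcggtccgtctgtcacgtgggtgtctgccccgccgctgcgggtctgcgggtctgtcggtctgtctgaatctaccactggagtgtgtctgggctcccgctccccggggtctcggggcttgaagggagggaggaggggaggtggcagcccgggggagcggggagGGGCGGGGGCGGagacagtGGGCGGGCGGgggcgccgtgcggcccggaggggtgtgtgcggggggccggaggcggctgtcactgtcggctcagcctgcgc

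Each window held 4 copies, beginning 215, 92 and 88 bases before the start and at base 31 of the transcript side in *Chrm4*, and 50, 44, 31 and 27 bases before the start in *Ache*. The box was also found in *Slc18a3*, with 2 copies, and in *Chrm2*, with 1. At least 1 copy was found in 35.7% of the 32851 promoters, and 74.0% and 70.7% of the bases of the *Ache* and *Chrm4* windows were G or C. A match is a description of the sequence and was not related to the expression values.

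The dopamine D1 receptor gene *Drd1a* marks the projection neurons in which *Chrm4* is most abundant. It was at 69.1, 63.0 and 68.1 CPM in the acute unlesioned and 11.2, 15.0 and 14.3 CPM in the acute lesioned libraries. In the chronic libraries it was at 75.5, 65.8 and 69.1 CPM in the unlesioned and 29.3, 21.9 and 32.9 CPM in the lesioned striatum. As for *Chrm4*, the acute lesioned libraries were the lowest, followed by the chronic lesioned ones, among which replicate 2 was the lowest. Of the 4 markers of these neurons (*Drd1a*, *Tac1*, *Pdyn* and *Isl1*), 3 were lower and 1 higher on the lesioned side after acute L-DOPA, with summed levels of 121 to 134 against 146 to 156 CPM, and 1 was lower and 2 were higher after chronic L-DOPA, with 278 to 326 against 143 to 181 CPM. Of all genes, 15.3% were called after acute and 13.7% after chronic L-DOPA. None of these markers was at 0, and their part in the result for *Chrm4* was not tested.

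*Chrm2*, which in the striatum encodes an autoreceptor of cholinergic interneurons (ENSMUST00000172278, 3 exons, chr6:36338084-36478414 of mm9, plus strand), was the only receptor gene called in none of the comparisons. It lay between 2.08 and 3.55 CPM, with the highest value in replicate 2 of the chronic unlesioned group. The log2 fold change between the striata was -0.03 after acute (standard error 0.10, edgeR adjusted p = 0.868) and -0.14 after chronic L-DOPA (standard error 0.18, edgeR adjusted p = 0.698), and 0.08 (standard error 0.15) after chronic L-DOPA without that replicate. A cDNA on the opposite strand, 9330158H04Rik, overlaps 142 exon bases.

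Cortical glutamatergic neurons also express muscarinic receptors, and most of their markers were lower on the lesioned side as well. *Slc17a7*, which encodes a vesicular glutamate transporter of cortical neurons, was at 23.4, 10.6 and 10.1 CPM in the acute unlesioned, 12.2, 1.64 and 1.24 in the acute lesioned, 18.1, 4.00 and 32.7 in the chronic unlesioned and 17.8, 1.33 and 1.29 in the chronic lesioned libraries. Of the 8 cortical markers, 6 were lower on the lesioned side in 6 of 6 same-numbered pairs, *Slc17a7* and *Neurod6* among them, and *Nptx1* was higher in all 6. Without the block, 1 of 8 tested was lower after acute L-DOPA and none of 7 after chronic L-DOPA, where *Nptx1* was higher. With the replicate block, a setting added after the data were seen, 6 of 8 were lower and 2 higher after acute L-DOPA, and 4 of 7 were lower and 1 higher after chronic L-DOPA. The shares of all genes called were 15.3% and 13.7% without the block and 25.1% and 24.2% with it. *Neurod6*, for example, had blocked log2 fold changes of -1.96 (standard error 0.23, edgeR adjusted p = 6.35e-05) after acute and -1.81 (standard error 0.56, edgeR adjusted p = 0.0396) after chronic L-DOPA.

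The summed levels of the 8 markers were 27.5 to 51.6 and 21.1 to 44.7 CPM in the acute unlesioned and lesioned, and 15.3 to 65.4 and 120 to 148 CPM in the chronic unlesioned and lesioned libraries, the last made up mostly of *Nptx1* (mean 124 CPM). None was at 0. The part of the cortical markers in the results for *Chrm1*, *Chrm3* and *Chrm4* was not tested.

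**Figure D4:**
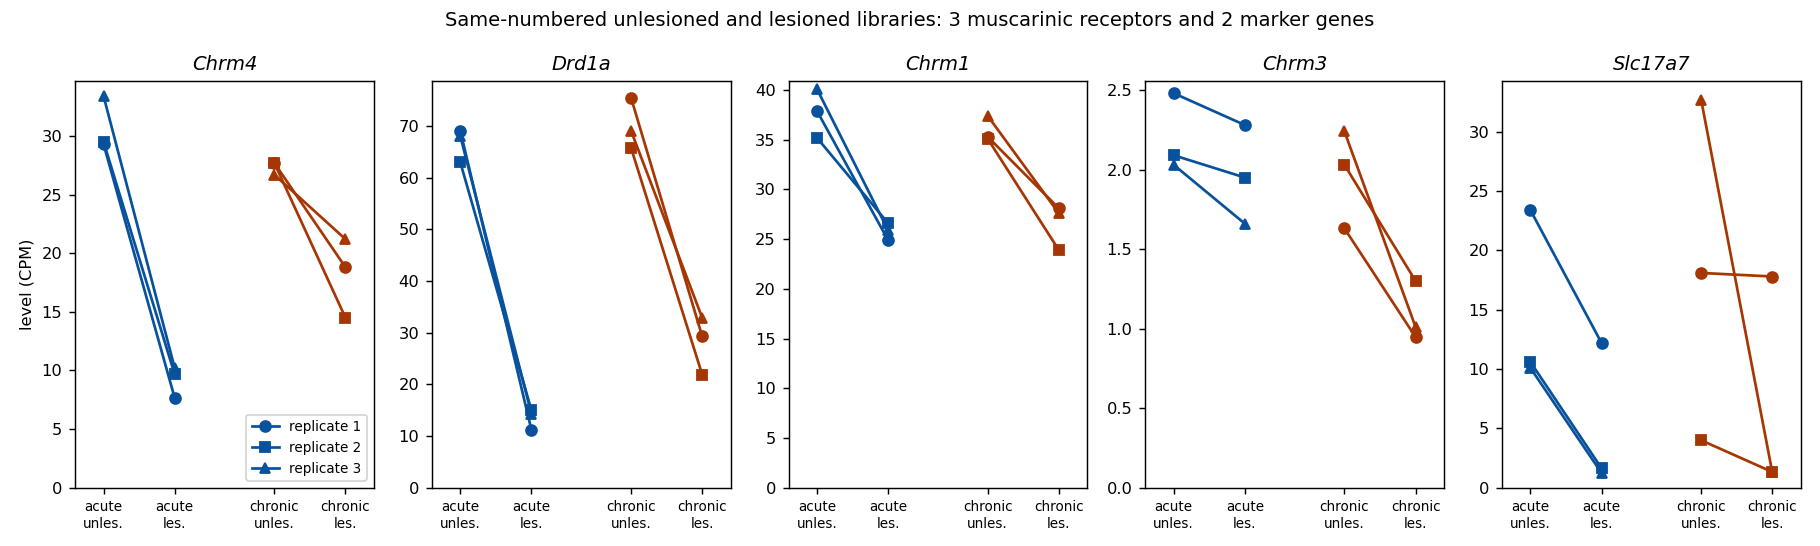
Levels in CPM of 3 muscarinic receptor genes, of the D1 receptor gene *Drd1a* and of the cortical marker *Slc17a7*, with lines joining the unlesioned and lesioned libraries of the same replicate number (acute in blue, chronic in brown). All 6 lines fall in each of the 5 panels, and those of *Slc17a7* start and end at levels that differ more between replicates.

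Whether the difference between the striata itself changed from acute to chronic L-DOPA was tested with an interaction term over all 12 libraries. It was called for 4 of the 10 members, against 5.10% of all genes. DESeq2 called 3 of these, all but *Chrm5*, and 8.83% of all genes. For *Chrm4* the lesioned striatum was less far below the unlesioned one after chronic L-DOPA, by 1.15 on the log2 scale (standard error 0.17, edgeR adjusted p = 0.00103), and this was kept under all 19 alternatives, between 1.02 and 1.29. For *Chrm5* the difference was 1.68 (standard error 0.41, edgeR adjusted p = 0.0301), and the call was lost on the removal of any of 8 of the 12 libraries, all but acute unlesioned replicates 1 and 3, chronic unlesioned replicate 3 and chronic lesioned replicate 2 (1.39 to 1.75, edgeR adjusted p of 0.0548 to 0.096). For *Slc5a7* it was -0.51 (standard error 0.14, edgeR adjusted p = 0.0458) and for *Lhx8* -0.84 (standard error 0.23, edgeR adjusted p = 0.0492), and these calls were lost on the removal of 10 and of 11 of the 12 libraries. The call of *Slc5a7* was kept only without acute lesioned replicate 3 or chronic unlesioned replicate 3 (otherwise -0.57 to -0.39, edgeR adjusted p of 0.0547 to 0.116), and that of *Lhx8* only without chronic lesioned replicate 3 (otherwise -0.92 to -0.66, 0.0508 to 0.118). Without the library with choroid plexus transcripts, *Chrm4* alone was called (1.16), with 1.59 for *Chrm5*, -0.44 for *Slc5a7* and -0.66 for *Lhx8*.

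For *Chrm3* the interaction was -0.70 (standard error 0.22, edgeR adjusted p = 0.0888) and passed with the replicate block, which gave the same value with a standard error of 0.15 (edgeR adjusted p = 0.0104, over all alternatives 0.0104 to 0.215). It also passed without chronic lesioned replicate 2 (-0.85, edgeR adjusted p = 0.0305). *Chrm1*, lower on the lesioned side in both treatments, had an interaction of 0.11 (standard error 0.10, edgeR adjusted p = 0.624), *Ache* of 0.19 (standard error 0.19, edgeR adjusted p = 0.642) and *Chat* of -0.38 (standard error 0.15, edgeR adjusted p = 0.183). Without the library with choroid plexus transcripts these values were 0.09, 0.32 and -0.28.

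A list of 45 further genes of the cholinergic system was read in the same fits, and 44 were in the table. After acute L-DOPA 4 were higher and 3 lower of 39 tested, and after chronic L-DOPA 3 were higher and 4 lower of 37 tested. These stand against 15.3% and 13.7% of all genes. With the replicate block the numbers were 5 and 8 after acute and 5 and 11 after chronic L-DOPA, against 25.1% and 24.2% of all genes. Between the lesioned striata 4 were higher and 7 lower after chronic than after acute L-DOPA, of 38 tested, against 25.6% of all genes. The count depended on single libraries. After acute L-DOPA it was 5 to 12 when each library was left out, highest without lesioned replicate 1, and the share over all genes 8.96% to 13.8%. Between the lesioned striata it was 6 to 19, with 6 without chronic replicate 1, 7 without acute replicate 2 and 19 without chronic replicate 2. The shares of all genes called in these 3 fits were 14%, 14.6% and 31.0%. Between the unlesioned striata none of 38 was called in edgeR's quasi-likelihood test and 1 in DESeq2. The median log2 fold change over the list was 0.00 after acute and -0.17 after chronic L-DOPA.

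Among the nicotinic receptor subunits, 8 of 13 passed the filter after acute and 6 after chronic L-DOPA. After acute L-DOPA 1 was called higher on the lesioned side, at a mean under 1 CPM, and 1 lower. After chronic L-DOPA 2 were called lower and 0 higher. The shares of all genes called were 15.3% and 13.7%. *Chrna7* was at 3.49, 3.44 and 3.14 CPM in the acute unlesioned and 2.52, 2.52 and 2.04 in the acute lesioned libraries, and it fell in the lesioned striatum by 0.50 after acute (standard error 0.10, edgeR adjusted p = 0.00728) and by 0.59 after chronic L-DOPA (standard error 0.11, edgeR adjusted p = 0.00546). The acute call of *Chrna7* was lost with summed transcripts (edgeR adjusted p = 0.0569, over all alternatives 0.000551 to 0.0569). *Chrna4*, a subunit of the most abundant brain nicotinic receptor, was at 3.34, 5.11 and 3.73 CPM in the chronic unlesioned and 1.38, 2.22 and 0.843 CPM in the chronic lesioned libraries. It fell by 1.45 after chronic L-DOPA (standard error 0.28, edgeR adjusted p = 0.00805; -1.25 without the library with choroid plexus transcripts), while its acute log2 fold change was -0.32 (standard error 0.10, edgeR adjusted p = 0.0630). *Chrnb2*, its partner subunit, rose between the lesioned striata by 0.40 (standard error 0.08).

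Of the choline supply genes, 2 of 5 were higher and none lower in each comparison of the striata, where 15.3% and 13.7% of all genes were called. *Chka*, which encodes a choline kinase, was at 9.55, 10.5 and 9.07 CPM in the acute unlesioned and 13.8, 15.5 and 15.9 CPM in the acute lesioned libraries, a rise of 0.64 (standard error 0.08, edgeR adjusted p = 0.000199). After chronic L-DOPA *Chka* rose by 0.35 (standard error 0.07, edgeR adjusted p = 0.0114; 0.33 and 0.0527 without replicate 3 of the unlesioned group), and *Pcyt1a*, whose enzyme acts next in phosphatidylcholine synthesis, rose by 0.46 (standard error 0.08). *Chkb* rose by 0.32 after acute L-DOPA (standard error 0.09, edgeR adjusted p = 0.0428), a call lost without any of 5 libraries (all but replicate 1 of the lesioned group, 0.22 to 0.36), in DESeq2, with summed transcripts and with all 12 libraries in the fit. These kinases act in all cells and not in cholinergic cells alone.

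Among the identity genes of cholinergic interneurons, *Slc17a8*, which encodes the vesicular glutamate transporter that these cells also use, was at 4.06, 4.70 and 4.47 CPM in the chronic unlesioned and 2.36, 1.95 and 2.66 CPM in the chronic lesioned libraries. It fell by 0.92 after chronic L-DOPA (standard error 0.12, edgeR adjusted p = 0.000681) and its log2 fold change was 0.09 (standard error 0.10, edgeR adjusted p = 0.584) after acute L-DOPA. The interaction of -1.01 was called (standard error 0.16, edgeR adjusted p = 0.00199), and between the lesioned striata *Slc17a8* fell by 1.21 (standard error 0.14).

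*Isl1*, a LIM homeodomain factor of both cholinergic interneurons and D1 projection neurons, went another way. It was at 3.25, 3.20 and 3.56 CPM in the acute unlesioned and 1.87, 1.93 and 1.97 CPM in the acute lesioned libraries, a fall of 0.78 (standard error 0.09, edgeR adjusted p = 0.000131). After chronic L-DOPA its log2 fold change was 0.13 (standard error 0.14, edgeR adjusted p = 0.616), and the interaction was 0.92 (standard error 0.17, edgeR adjusted p = 0.00636). *Lhx6* fell between the lesioned striata by 0.41 (standard error 0.10, edgeR adjusted p = 0.0146), a call lost without replicate 2 of the acute or replicate 1 of the chronic lesioned group (-0.39 to -0.34).

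Downstream of the receptors, *Plcb1*, the phospholipase coupled to Gq, fell by 0.35 on the lesioned side after acute L-DOPA (standard error 0.07, edgeR adjusted p = 0.00973), and *Gnai2*, a Gi subunit, rose by 0.33 (standard error 0.06, edgeR adjusted p = 0.00339). After chronic L-DOPA *Kcnj3*, a subunit of the potassium channel opened by Gi-coupled receptors, fell from 6.09, 5.59 and 5.89 to 3.77, 3.93 and 2.43 CPM, a log2 fold change of -0.79 (standard error 0.16, edgeR adjusted p = 0.00912). Between the lesioned striata 3 of the 5 genes on the Gi side fell, where 25.6% of all genes were called, among them *Gnai2* by 0.42 (standard error 0.09; -0.37 and edgeR adjusted p = 0.0515 without chronic lesioned replicate 1) and *Gnai1* by 0.38 (standard error 0.11, lost without any library but chronic lesioned replicate 2, -0.39 to -0.27).

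For 4 members, the genes with the nearest pattern were sought among 12794 genes with a mean of at least 1 CPM, by the root mean square difference of the centred log2(CPM + 0.5) over the 12 libraries. *Chat* was nearest to *Cygb* (0.0773), *Hyal1* (0.0812) and *Slc5a7* (0.0863). *Chrm1* was nearest to D130043K22Rik (0.0635), *Slc8a2* (0.0666) and *Ptchd1* (0.0749). *Ache* was nearest to *Ufsp1* (0.124), *Mrap2* (0.127) and Gm15612 (0.130). *Chrm4*, whose own SD over the libraries was 0.713, was nearest to *Slc35d3* (0.169), *Dok4* (0.299) and the clone AK133086 (0.333), so that only *Slc35d3* came close, with levels of 11.0, 4.11, 9.76 and 7.08 CPM in the acute unlesioned, acute lesioned, chronic unlesioned and chronic lesioned groups. These distances describe 12 libraries of 4 groups and carry no test.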

How the data were processed

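Gene expression was measured by RNA-seq (TruSeq libraries from 0.5 µg RNA) in 12 libraries, 3 per group, grouped by their labels. The deposited table held raw read counts per transcript, which the authors had obtained on the mouse genome build mm9 and analysed with DESeq, and a length- and library-scaled signal per transcript that the authors called normalised expression. The scaled signal was used only to check the counts: for 99.8% to 99.9% of transcripts with at least 500 counts, it was within 20% of what count and length gave. Reads overlapping several transcripts count for each of them, and strand and multiple mapping settings are not given in the sources used here. Another 36 per-sample columns, and 3 tables of the authors' own fold changes and p-values, were not used. The 296 transcripts without a gene name (0.0485% of counts) were left out.

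Counts of all transcripts were filtered with filterByExpr, scaled by TMM and tested with edgeR 4.0.16 (glmQLFit and glmQLFTest, R 4.3.3, limma 3.58.1) in the 6 libraries of each comparison, or in all 12 for the interaction, with Benjamini-Hochberg adjustment over all transcripts tested and a threshold of 0.05. CPM used the same scaling. Background shares refer to a single transcript per gene. Alternatives were DESeq2 1.42.0, its size factors in edgeR, no filter on low counts, a threshold of 0.01, a single transcript per gene, summed transcripts, all 12 libraries in the fit, each library left out and the replicate number as a block. In the comparisons of chronic with acute L-DOPA the number joins libraries of different treatments, so the block is no pairing there. The same settings for the other named cholinergic genes, and the block for cell type markers, were added after the data were seen. Values were tabulated in pandas 2.3.3 (Python 3.11.15, scipy 1.17.1, numpy 2.4.6) and plotted in matplotlib 3.10.9.

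The same-numbered lesioned and unlesioned libraries deviated together from their group means, with correlations over 11762 genes of 0.459, 0.359 and 0.384 after acute and 0.529, 0.590 and 0.152 after chronic L-DOPA, all above the limit of 0.1, so the numbers were taken to pair them. Between the acute and the chronic lesioned libraries the correlations of replicates 1 to 3 were -0.118, -0.184 and 0.287. Between the unlesioned ones they were -0.0538, -0.0517 and 0.156. Replicate 3 was thus above the limit between treatments as well, so for replicate 3 the limit does not separate pairs from other libraries. The pairing and the 12 mice of the design text leave it unsettled which libraries share a mouse, so p-values measure the spread between these libraries. The floor of 3 counts covers counting error only.

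All members were named, with each represented by its transcript of highest mean CPM. Of the other cholinergic genes, at most 8 per comparison were named, those called with a mean of at least 1 CPM, by absolute log2 fold change. For *Chat*, *Ache*, *Chrm1* and *Chrm4* the 3 genes of nearest pattern were named. The members and lists were chosen with earlier results of these data known. On simulated counts for the acute comparison (128974 transcripts), 95 of 100 changes of 1 and 100 of 100 changes of 2 on the log2 scale were recovered, with 6 false calls among 201. For the interaction (129782 transcripts) these were 81 and 99 of 100, with 15 false among 195. The simulated counts were independent between transcripts, without pairing and without a library like that with choroid plexus transcripts. Changes smaller than 1, or in transcripts as scarce as *Chrm5*, were not simulated, so these rates do not cover them. Promoter sequences came from RefSeq (GRCm38.p6), in which 9 of 10 members matched.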

Additional observations from a re-analysis of the deposited data

Results flagged for a closer look

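For 4 members the difference between the lesioned and the unlesioned striatum changed from acute to chronic L-DOPA by the test of that change itself, edgeR's quasi-likelihood test of the interaction with Benjamini-Hochberg adjustment. *Chrm4* stood out with 1.15 on the log2 scale (edgeR adjusted p = 0.00103), its lesioned libraries being lower than the unlesioned ones in 3 of 3 pairs of both treatments. For *Chrm5* the change was 1.68 (edgeR adjusted p = 0.0301), from counts of 10 to 92 per library. It was -0.51 for *Slc5a7* (edgeR adjusted p = 0.0458) and -0.84 for *Lhx8* (edgeR adjusted p = 0.0492). The calls of *Slc5a7*, *Lhx8* and *Chrm5* were lost on leaving out any of 10, 11 and 8 of the 12 libraries, respectively. Without the library with choroid plexus transcripts, *Chrm4* was the only 1 of the 4 still called.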

How the results depend on the processing

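Over the 749 combinations of member, comparison and alternative, 671 kept their side of the threshold, 66 fell below it and 12 passed it in addition. Some values near 0 that were not called changed sign among the 671, and 0 called values did. For the other named cholinergic genes these were 295 of 318 kept, with 23 that fell below. The number of members called rose after acute L-DOPA from 3 to 5 with the replicate block, which pairs the libraries by number. At an adjusted p under 0.01 it was 3 after chronic L-DOPA, 4 between the lesioned striata and 1 for the interaction. The share of all genes at this threshold is not given here. The interaction was called for 2 members with a single transcript per gene and for 2 with summed transcripts, where 5.1% and 4.33% of all genes were called. With each library left out in turn, 2 to 3 members were called after acute L-DOPA, 3 to 4 after chronic L-DOPA, 5 to 6 between the lesioned striata, 0 to 1 between the unlesioned striata and 1 to 3 for the interaction. The shares of all genes called in these fits were 8.96% to 13.8% after acute and 8.37% to 13.1% after chronic L-DOPA. They were 14% to 31% between the lesioned striata, 0.0679% to 12.1% between the unlesioned striata and 3.27% to 7.84% for the interaction. The causes of these changes were not tested. Over all genes, the replicate block raised the share called to 25.1% after acute L-DOPA, 24.2% after chronic L-DOPA and 13.4% for the interaction, and the share of higher calls moved from 62.0% to 52.8% after chronic L-DOPA and from 69.4% to 54.3% for the interaction. *Chrm5* had 10 to 92 counts per library, and no setting tested depth itself. The interaction of the other cholinergic genes was called for 3 of 40 tested (5.10% of all genes), and for 8 without chronic lesioned replicate 2, where 7.84% of all genes were called.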
